A study of Mus musculus with 18 samples.

Results

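The genes described here carry the insulin signal in liver: the insulin receptor Insr, the adaptors Irs1 and Irs2, the phosphoinositide 3-kinase subunit Pik3r1, the kinase Akt2, the transcription factor Foxo1 and its target Igfbp1. They were chosen by name, as all array probes whose deposited gene name is 1 of these 7 symbols. That gave 12 probes for 6 genes, out of 41174 probes on the array, and no probe carries the name Irs2, which was not analysed here. All 12 probes passed the filter on dim signals, which kept 25427 probes in all. Liver RNA came from 18 male CD-1 mice, an outbred strain, each hybridised alone to a 1-colour Cy3 Agilent array. The 6 control mice ate a powdered diet without bisphenol A, the 6 low-dose mice the same diet set to give 50 µg of bisphenol A per kg body weight per day, and the 6 high-dose mice one set to give 5000 µg. Exposure lasted 28 days, the mice were 9 weeks old at the end, and all groups shared a diet with 49% starch and 24.4% sucrose, eaten freely under 12 hours of light per day. The doses are averages that assume a daily food intake of 10% of body weight. The labels name neither the hour of killing nor the time of the last meal, so feeding state at death is known only as far as RNA levels reflect it.

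Insulin binds Insr, a receptor tyrosine kinase, which phosphorylates the adaptors Irs1 and Irs2. These recruit phosphoinositide 3-kinase, whose regulatory subunit is encoded by Pik3r1, and the lipid it makes activates Akt2, the main Akt kinase of insulin action in liver. Akt2 phosphorylates FOXO1 and so keeps it out of the nucleus, and in the fasted liver, where insulin is low, FOXO1 switches on genes such as Igfbp1, a secreted protein that binds insulin-like growth factors. Much of this signal runs through phosphorylation, which RNA levels do not show. In fed liver, insulin also raises Srebf1, a transcription factor of fat synthesis.

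FOXO1 is known to act on Igfbp1 through short promoter elements that hold CAAAACA, the insulin response element, and promoter sequence is shown here for the 2 members with that motif that were measured. RefSeq promoter windows of build GRCm38.p6, running from 250 bases before to 50 after each annotated start, were found for 6 of the 7 genes, 10 windows in all. Both strands were searched for CAAAACA, which reads TGTTTTG on the other strand, and for another FOXO motif, GTAAACA, which there reads TGTTTAC. The motif CAAAACA stood in 1 window each of Igfbp1, Irs1 and Irs2, and GTAAACA stood in none of the 10 windows. In all 32851 mouse promoter windows of this length, 6.28% hold CAAAACA, 3.65% hold GTAAACA and 9.63% hold either. The first line gives the 250 bases before the Igfbp1 start (chr11:7197537-7197786, plus strand), with the motif in capitals beginning at position -108, counted back from the start. The second gives part of the Irs1 window (chr1:82291450-82291565, minus strand), with 2 matches on the other strand in capitals, beginning at positions -111 and -32. A match of letters is a description, not a measured binding site.
Igfbp1: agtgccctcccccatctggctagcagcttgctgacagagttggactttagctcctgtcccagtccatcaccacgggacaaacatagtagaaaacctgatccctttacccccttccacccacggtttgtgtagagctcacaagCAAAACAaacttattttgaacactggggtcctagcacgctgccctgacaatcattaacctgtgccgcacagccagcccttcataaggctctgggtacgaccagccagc
Irs1: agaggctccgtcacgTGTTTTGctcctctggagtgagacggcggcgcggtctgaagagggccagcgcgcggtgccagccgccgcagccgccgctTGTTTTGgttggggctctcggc

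Levels are log2 intensities, after background subtraction, relative to the 75th percentile of the same array, so a level of 0 is as bright as that percentile. The 75th percentile was brighter at both doses (295 ± 44.0 intensity units at the low dose against 230 ± 43.1 in controls, SD, n = 6 each, and 292 ± 34.1 at the high dose). The log2 difference in brightness was 0.37 for low dose against control (exact permutation test, p = 0.0303) and 0.36 for high dose against control (exact p = 0.0173). Arrays that share a scan time were taken as 1 slide, which gave 5 slides, and 1 of them held no control. Markers of hepatocytes were bright in all mice. Of 10 such markers, 9 were lower at each dose than in controls, and 5 of them had an unadjusted p under 0.05 at each dose. These 5 (Alb, Apoa1, Ahsg, Serpina1a and Fgb) were saturated on 17 or 18 arrays, while none of the 5 unsaturated markers had such a p. The unsaturated 5 had log2 fold changes between -0.34 and 0.11 at the low dose and between -0.69 and 0.01 at the high dose. The saturated 5 lay between -0.41 and -0.37 at the low dose and between -0.42 and -0.31 at the high dose. The brightness of the scaling percentile differed by 0.37 and 0.36 at these doses. The part of saturation and scaling in the values of the saturated markers was not tested. Markers of other cell types had 0 calls in each comparison with control. Kupffer cell markers were higher in 8 of 9 at each dose, with medians of 0.12 at the low dose and 0.40 in high-dose mice, and 0 of 9 had an unadjusted p under 0.05 in either. Their summed level ranged between 4.98 and 6.59 in controls, 5.26 and 6.74 in low-dose mice and 5.50 and 7.33 in high-dose mice. Cholangiocyte markers were higher in 5 of 5 at the low dose (median 0.45) and in 4 of 5 at the high dose (median 0.25), with Krt19 at 0.79 for low dose against control (unadjusted p = 0.00186, limma). Their summed level ranged between 3.08 and 4.38 in controls, 3.26 and 4.82 in low-dose mice and 3.31 and 6.51 in high-dose mice. Of 5 fat cell markers, Adipoq, Plin1, Lep and Retn did not pass the filter on dim signals. The fifth, Cfd, was dim, with levels between -7.56 and -3.62, and was at 0.71 for low dose against control and 1.25 for high dose against control (unadjusted p = 0.0195, limma). Of 5 muscle markers only Mylpf passed the filter, at -0.05 and -0.02 in these comparisons. Of 6 acinar markers, Cela1, Ctrb1 and Cel passed it, with values between -0.47 and 0.34, Pnlip and Cpa1 did not, and Prss1 was not analysed here. The part of these markers in the values below was not tested. In bulk tissue, fewer cells of a type and less RNA per cell cannot be told apart.

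No member of the pathway passed the test at either dose. The limma test was run on each of the 25427 kept probes with Benjamini-Hochberg adjustment over all of them. For low dose against control, 0 of the 12 probes had an adjusted p under 0.05, against 0.224% of all probes tested (57 of 25426). For high dose against control the count was 0 of 12, against 0% of all probes (0 of 25426), and for high against low dose 0 of 12, against 0.0433% (11 of 25425). At an unadjusted p under 0.05 the members' counts were 3, 1 and 2 of 12 in these comparisons, against 12.3%, 7.29% and 7.66% of all probes. The median log2 fold change of the 12 probes was -0.04 at the low dose against control, where all probes tested had -0.02. It was 0.02 at the high dose against control (all probes -0.01) and 0.05 between the doses (all probes 0.01). In each comparison 9 of the 12 probes moved by less than 0.25. For no probe did the mice of 1 group all lie above or below those of the other, against 1.74%, 0.392% and 0.493% of all probes measured in all 12 mice of the comparison. Both doses were set against the same control mice.

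**Figure D1:**
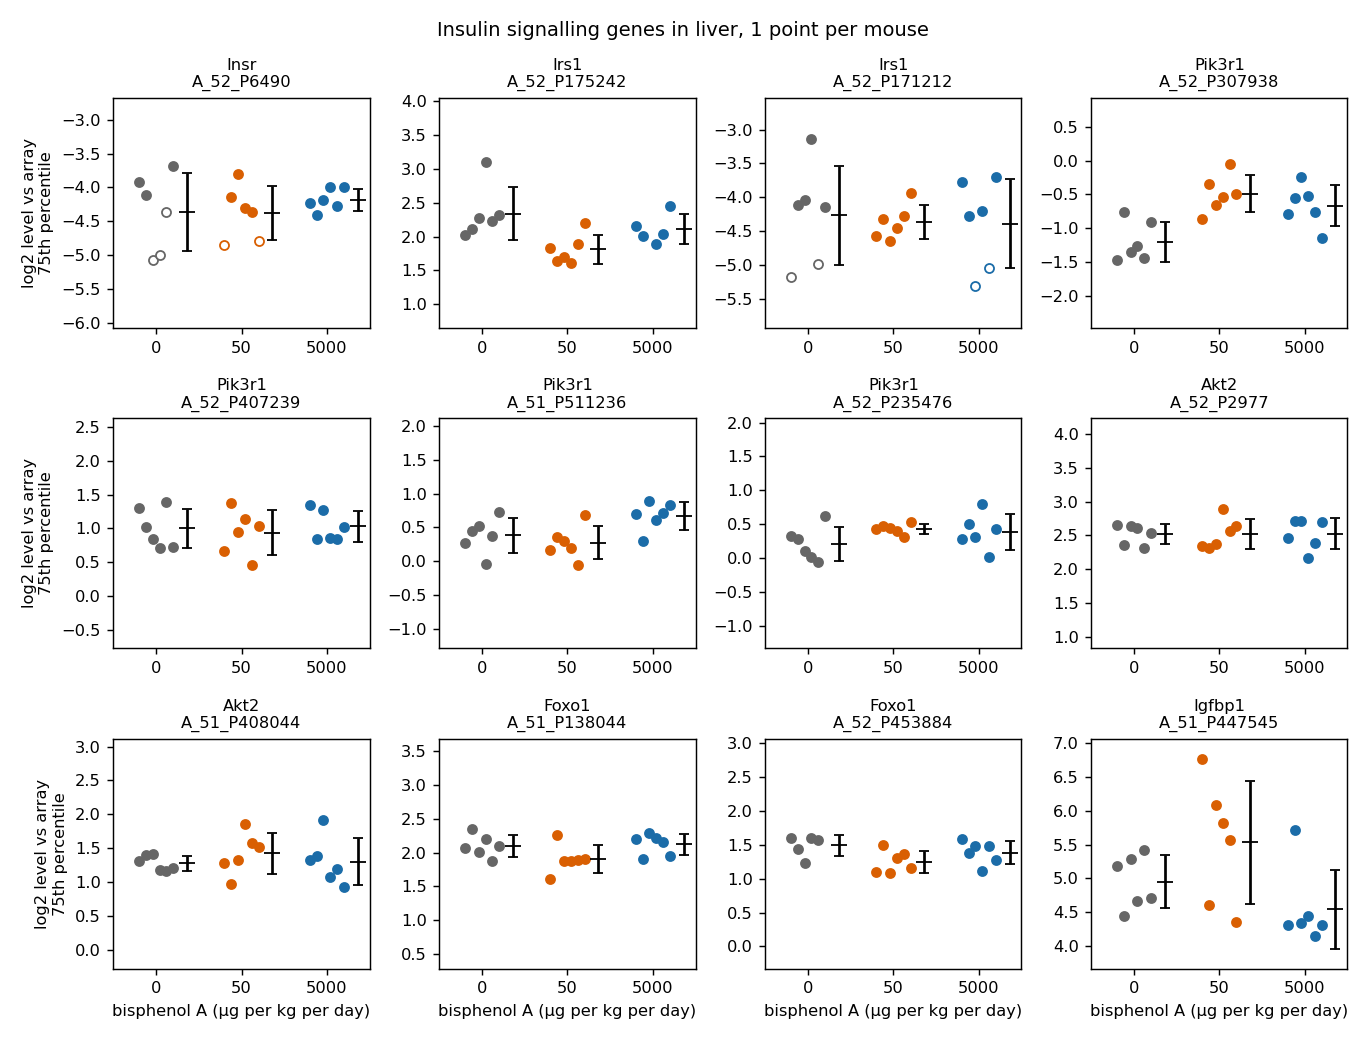
Log2 level of the 12 probes in each mouse, relative to the array's 75th percentile (vertical axis), by dose of bisphenol A (horizontal axis: control, low and high dose, 6 mice each). Open points were not well above background, and bars give the mean and SD. All panels span the same height, and Igfbp1 has the widest spread among mice of 1 group at the low dose, with levels between 4.35 and 6.77.

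The receptor Insr was dim. Its probe (chr8:3159473-3159532, minus strand, build mm8) was well above background in 3 of 6 control mice, 4 of 6 low-dose mice and 6 of 6 high-dose mice. Its level ranged between -5.08 and -3.68 in controls, between -4.85 and -3.79 at the low dose and between -4.41 and -4.00 at the high dose. The ranges overlap throughout. The log2 fold change was -0.01 for low dose against control (95% interval -0.50 to 0.47) and 0.18 for high dose against control (-0.31 to 0.66). Changes within these intervals are not excluded.

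Irs1, the adaptor that links the receptor to phosphoinositide 3-kinase, was lower at the low dose on its bright probe, without passing the test. This probe (chr1:82112141-82112200, minus strand, mm8) read 1.84, 1.63, 1.70, 1.62, 1.89 and 2.19 in low-dose mice, against 2.02, 2.11, 2.27, 3.10, 2.23 and 2.31 in control mice. Of the 6 low-dose mice, 5 lay below every control mouse. The high-dose mice read 2.15, 2.01, 1.89, 2.04 and 2.46, with no value for high-dose mouse 3, whose spot was marked as an outlier. The log2 fold change for low dose against control was -0.53 ± 0.16 (SE), or 0.693-fold, with a p of 0.00532 and an adjusted p of 0.185 (limma). Within slides it lay between -1.07 and -0.03 and was negative on 4 of 4 slides, and with slide as a block it was -0.48 (adjusted p = 0.341). Control mouse 4 stood apart at 3.10, and without it the log2 fold change was -0.38 (adjusted p = 0.279). For high dose against control it was -0.23 (adjusted p = 0.793), with -0.68 in the authors' deposited value table and -0.08 without control mouse 4. For high against low dose it was 0.30 (adjusted p = 0.755), and in the authors' deposited value table its sign turned, at -0.22. Outlier-marked spots were not removed from that table, so its fits may include high-dose mouse 3. The part of that mouse in these shifts was not tested. The second Irs1 probe, 3872 bases further 5′ in the genome (chr1:82116013-82116072), was dim, with levels between -5.32 and -3.14, and was well above background on 14 of 18 arrays. This dim probe is the one annotated to a RefSeq Irs1 transcript, while the bright probe is annotated to a different sequence that is not from RefSeq. Whether both read the same transcript was not tested. The dim probe gave -0.10 for low dose against control and was positive on 2 of 4 slides. Its 95% interval of -0.78 to 0.57 contains the value of the bright probe. Deviations from the group mean correlated at r = 0.74 between the 2 probes over 17 mice. Control mouse 4 was the highest mouse on both (3.10 and -3.14), and how far the correlation leans on it was not tested.

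Pik3r1, which encodes regulatory subunits of phosphoinositide 3-kinase, gave different answers on its 4 probes. The 5′-most probe, which spans 1043 genomic bases (chr13:102789708-102790750, minus strand, mm8) for its 60 bases, had the smallest p of all members at the low dose. It read -0.86, -0.35, -0.65, -0.54, -0.06 and -0.49 in low-dose mice, against -1.47, -0.76, -1.35, -1.26, -1.44 and -0.90 in control mice. Of the low-dose mice, 5 of 6 lay above every control mouse. The log2 fold change was 0.71 ± 0.17 (SE), or 1.63-fold, with a p of 0.000506 and an adjusted p of 0.0810 (limma), and it was positive on 4 of 4 slides, between 0.30 and 0.95. High-dose mice read -0.80, -0.55, -0.24, -0.52, -0.76 and -1.14 on it, and 4 of 6 lay above every control mouse. Their log2 fold change against control was 0.53 ± 0.17 (adjusted p = 0.574), and for high against low dose it was -0.18 (adjusted p = 0.876). The size depends on the background method: the low-dose value was 0.26 with normexp background and 0.31 in the authors' deposited value table, neither past the threshold. With array weights the value stayed at 0.71 and passed (adjusted p = 0.0358). The fit that blocks on slide gave 0.69 (adjusted p = 0.201).

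The other 3 Pik3r1 probes lie 3′ of it, at 4650, 2848 and 0 bases from the 3′-most one, which is at chr13:102781860-102781919. For low dose against control they gave log2 fold changes of -0.06, -0.11 and 0.22, with adjusted p-values of 0.923, 0.811 and 0.526. For high dose against control they gave 0.03, 0.29 and 0.17. On the middle of these 3 (chr13:102784708-102784767), high-dose mice read between 0.30 and 0.88 and low-dose mice between -0.06 and 0.68, a log2 fold change of 0.40 that was positive on 5 of 5 slides (limma p = 0.0101, adjusted p = 0.465, exact permutation p = 0.0173). The 4 probes moved little together between mice of 1 group, with pairwise r between -0.19 and 0.35 over 18 mice. The 5′-most probe minus the mean of the other 3 on the same array was chosen after its values were seen and is given as a description, with no test. It averaged -1.04 ± 0.37 at the low dose and -1.73 ± 0.30 in controls (SD, n = 6 each), with 0.69 ± 0.20 (SE) between them. Low-dose values ran from -1.28 to -0.29 and control values from -2.10 to -1.34, without overlap. On each of the 4 probes alone the groups overlapped. How often such a contrast separates the groups for probes of other genes was not tested, so this separation has no background rate to be set against. Within the 4 slides that hold both groups the difference lay between 0.54 and 0.78. Low-dose mouse 5 stood apart at -0.29, and without it the difference was 0.54. The difference was 0.23 with normexp background and 0.28 in the authors' deposited value table, with overlap between the groups in both. At the high dose it averaged -1.36 ± 0.32, a difference of 0.36 from controls.

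**Figure D2:**
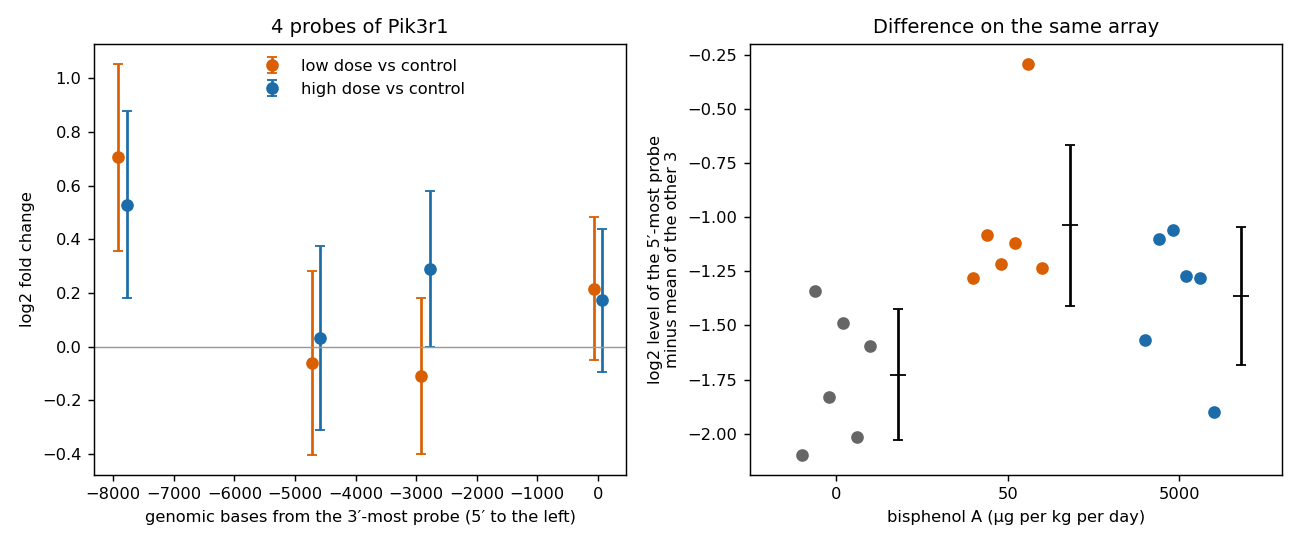
Left: log2 fold change with 95% interval of the 4 Pik3r1 probes by genomic distance from the 3′-most probe, for each dose against control. Right: log2 level of the 5′-most probe minus the mean of the other 3 on the same array, per mouse, by dose, with mean and SD. Points of the 5′-most probe lie at 0.71 and 0.53, and those of the other 3 between -0.11 and 0.29.

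Akt2, the kinase downstream of phosphoinositide 3-kinase, did not pass the test at either dose. Its brighter probe (chr7:27347600-27347659, plus strand, mm8) had a median of 2.58 in controls (range 2.32 to 2.65), 2.47 at the low dose (2.31 to 2.90) and 2.57 at the high dose (2.16 to 2.72). The log2 fold change was 0.01 for each dose against control, with a 95% interval of -0.25 to 0.26 in both. The second probe, which spans 141 genomic bases (chr7:27345714-27345854), gave 0.15 for low dose against control and 0.03 for high dose against control (adjusted p = 0.769 and 0.979). The 2 Akt2 probes correlated at r = 0.60 between mice within groups.

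Foxo1, the transcription factor that Akt2 holds out of the nucleus, was slightly lower at the low dose on both probes and did not pass the test. The first probe (chr3:52434190-52434249, plus strand, mm8) read 1.61, 2.26, 1.87, 1.88, 1.89 and 1.90 in low-dose mice, against 2.07, 2.35, 2.01, 2.19, 1.88 and 2.10 in control mice. The groups overlap, with 2 of 6 low-dose mice below every control mouse. The log2 fold change was -0.20 ± 0.11 (SE, limma p = 0.0877, adjusted p = 0.494, exact permutation p = 0.102), and it ranged between -0.60 and 0.18 over slides, negative on 2 of 4. The second probe, 3106 bases further 3′ (chr3:52437296-52437355), gave -0.24 ± 0.11 (limma p = 0.0406, adjusted p = 0.375, exact permutation p = 0.0390), negative on 4 of 4 slides, with no value for control mouse 6. High-dose mice read between 1.91 and 2.28 on the first probe, and the log2 fold change against control was 0.02 there and -0.11 on the second probe. The first of these 2 values was negative in 4 of 32 fits with other settings. For high against low dose the 2 probes gave 0.22 and 0.14 (adjusted p = 0.685 and 0.828), and all 6 high-dose mice lay above the low-dose mean on the first.

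Igfbp1, the FOXO1 target that rises with fasting, had the widest spread of the members among low-dose mice. Its probe (chr11:7102442-7102501, plus strand, mm8) read 5.19, 4.44, 5.29, 4.67, 5.42 and 4.71 in control mice. Low-dose mice read 6.77, 4.60, 6.08, 5.82, 5.58 and 4.35, of which 4 lay above every control mouse and 1 below. High-dose mice read 4.31, 5.72, 4.34, 4.45, 4.15 and 4.31, of which 4 lay below every control mouse and 1 above. The SD was 0.40 in controls, 0.91 in low-dose mice and 0.58 in high-dose mice. For low dose against control the log2 fold change was 0.58 ± 0.36 (SE, adjusted p = 0.558), and it was positive on 2 of 4 slides, between -1.06 and 1.73. Without low-dose mouse 1 it was 0.33. For high dose against control it was -0.41 ± 0.36 (adjusted p = 0.822), between -1.19 and 1.28 over slides, and -0.64 without high-dose mouse 2. The largest difference was between the doses: high-dose mice averaged 4.55 ± 0.58 and low-dose mice 5.53 ± 0.91 (SD, n = 6 each), a log2 fold change of -0.99 ± 0.36 or 0.504-fold. It was negative on 5 of 5 slides, between -1.63 and -0.12, with a p of 0.0139 and an adjusted p of 0.493 (limma), and the exact permutation p was 0.0303. With slide as a block it was -0.85 (adjusted p = 0.608). High-dose mouse 2 stood apart from the other 5, and without it the log2 fold change against the low dose was -1.22 (adjusted p = 0.220).

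**Figure D3:**
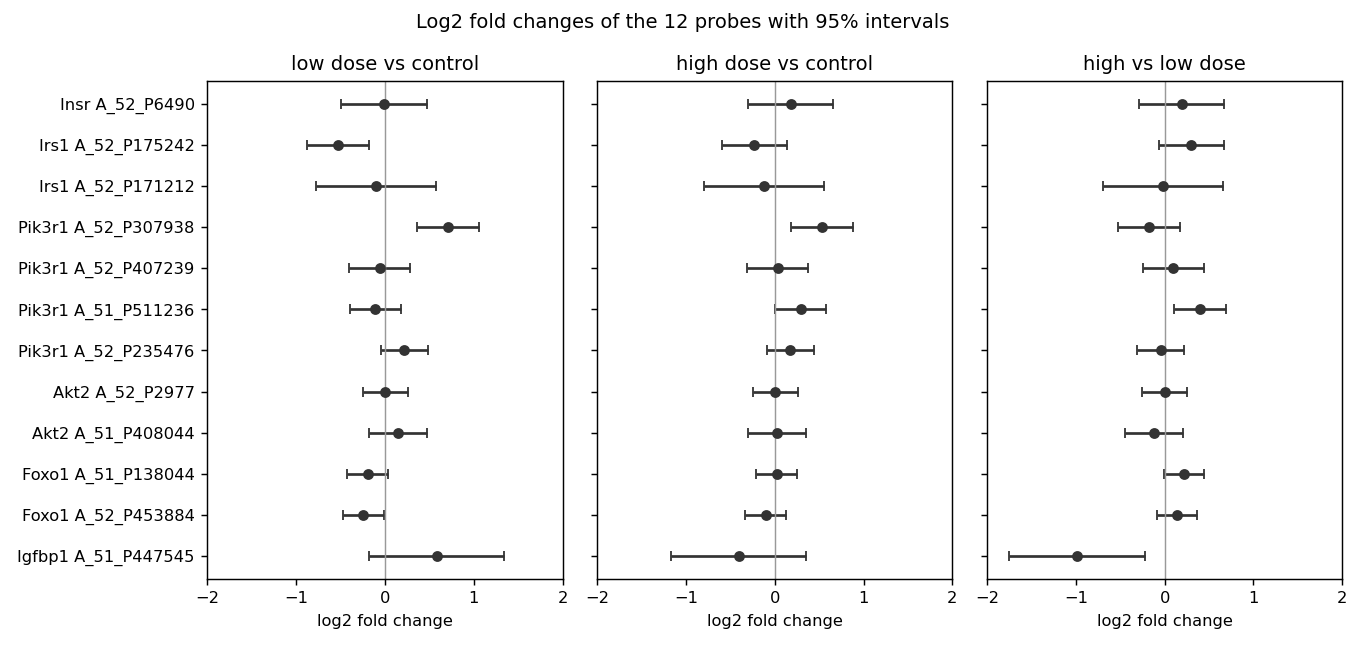
Log2 fold change (horizontal axis) with 95% interval from the limma fit for each of the 12 probes (vertical axis, ordered along the pathway) in the 3 comparisons. Intervals are narrow for Foxo1 and the brighter Akt2 probe and wide for Igfbp1, whose high against low dose value is -0.99.

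Mice of 1 group differed from each other, and these differences were used to ask which genes varied together. Each gene was read from its brightest probe as the deviation from its group mean, and 33 relations were computed: the 15 pairs of members, and each member against 3 genes of feeding state, of which Srebf1 and G6pc are described here. Only Foxo1 and Igfbp1 passed 0.05 after Benjamini-Hochberg adjustment over the 33. How often other pairs of genes reach such an r was not tested, so the pair has no background rate to be set against. Among 12817 other named genes, r with Foxo1 reached 0.92 (Lmbr1) and -0.89 (Pi4kb), further from 0 than for Igfbp1. Mice with higher Foxo1 had lower Igfbp1, with Pearson's r = -0.74 (permutation p = 0.00051, adjusted p = 0.0168) and Spearman's rho = -0.78 (adjusted p = 0.00594) over 18 mice. Without the 2 mice farthest from the median of Foxo1, r was -0.59, and leaving out any 1 mouse gave r between -0.86 and -0.66. Within each group of 6 mice, r was -0.92 in controls, -0.76 in low-dose mice and -0.64 in high-dose mice. Spearman's rho was -1 in controls, -0.94 in low-dose mice and -0.09 in high-dose mice, so the order of the high-dose mice did not follow it. High-dose mouse 2 deviated by -0.21 in Foxo1 and 1.18 in Igfbp1. The other high-dose mice had Igfbp1 deviations between -0.40 and -0.10, so the Pearson value of that group leans on this mouse. With slide means removed as well, r was -0.90. The relation did not pass the adjustment under other scalings: r was -0.68 with quantile normalisation (permutation p = 0.00246) and -0.47 with the array median (p = 0.0408), and 0 of 33 relations passed with either. With the second Foxo1 probe r was -0.30 (permutation p = 0.281, 17 mice). The 2 Foxo1 probes correlated with each other at r = 0.40 over 17 mice.

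**Figure D4:**
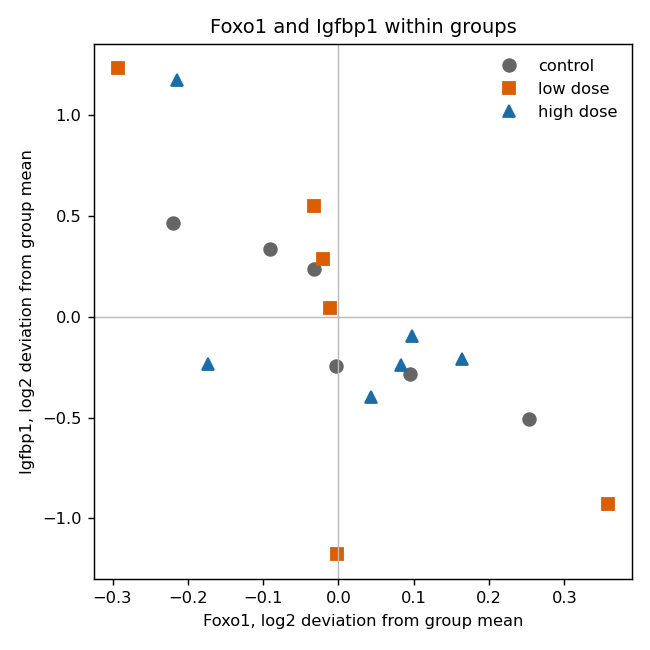
Deviation of Foxo1 (horizontal axis, first probe) and of Igfbp1 (vertical axis) from the group mean, both on the log2 scale, 1 point per mouse with groups by colour and shape. Points run downward to the right, with r = -0.74 over 18 mice.

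Irs1 and G6pc gave r = 0.57 over 17 mice, with an unadjusted permutation p under 0.05 (p = 0.0248, adjusted p = 0.409). Igfbp1 and G6pc, both FOXO1 targets that rise with fasting, gave r = -0.22 (p = 0.266). Igfbp1 gave r = -0.14 with Srebf1 over 17 mice. Over 12817 other named genes measured on all arrays, the genes whose deviations were most like those of Igfbp1 were Sp110 (r = 0.87), Ripk3 (0.86) and Slc11a1 (0.85), and the least alike were Sft2d2 (-0.82), Zfp553 (-0.81) and Sephs1 (-0.80). For Foxo1 the most alike were Lmbr1 (r = 0.92), Lactb (0.91) and Ash1l (0.89), and the least alike Pi4kb (-0.89), Cmtm7 (-0.88) and Pmaip1 (-0.87). For Akt2 they were Ube2z, Sidt2 and Grina (r between 0.87 and 0.91), for Irs1 they were Slit3, Tsen15 and Zfp566 (0.81 to 0.84), and for the brightest Pik3r1 probe Txndc12, Ypel1 and Cdc14b (0.81 to 0.86). For the dim Insr probe they were Mt4, Morn5 and Dipk1b (0.85 to 0.93). These are the extremes of many comparisons over 18 mice (17 for Irs1) that share array scale, and are a description only.

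The rest of the pathway gave no calls. Of 44 other insulin signalling genes, 40 were measured, and 0 passed in any comparison, against 0.224%, 0% and 0.0433% of all probes. Their median log2 fold change was -0.07 for low dose against control and -0.06 for high dose against control, beside -0.02 and -0.00 over all genes. The smallest p at the low dose belonged to Prkcz, an atypical protein kinase C, at -0.40 (adjusted p = 0.118), to Sos1, which links receptors to Ras, at 0.32 (adjusted p = 0.228), and to Eif4ebp1, a repressor of translation that mTORC1 inactivates, at -0.33 (adjusted p = 0.326). At the high dose Phlpp1, an Akt phosphatase, was at -0.40 (adjusted p = 0.642). For high against low dose Trib3, a pseudokinase that can bind Akt, was at 0.74 (adjusted p = 0.630).

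Other FOXO1 targets gave no calls either. Of 23 listed, 22 were measured, and 0 passed in any comparison, against 0.224%, 0% and 0.0433% of all probes. Their median was -0.07 for low dose against control, -0.12 for high dose against control and 0.01 between the doses. All genes had medians of -0.02, -0.0048 and 0.02 in these comparisons. At the low dose 13 of the 22 were lower, against 9602 of 17681 genes in all, and at the high dose 17, against 9016. G6pc, the last enzyme of glucose release, averaged 6.23 ± 0.67 in controls, 6.95 ± 0.23 in low-dose mice and 6.24 ± 0.38 in high-dose mice (SD, n = 6 each). Its log2 fold change was 0.71 for low dose against control (adjusted p = 0.251) and -0.70 for high against low dose (adjusted p = 0.486). G6pc was thus, like Igfbp1, higher in the mean at the low dose than in either other group, and neither passed the test. Mttp, which loads lipid onto lipoproteins, was at -0.42 for high dose against control (adjusted p = 0.574) and for high against low dose (adjusted p = 0.305). Ccng2, a cyclin that FOXO factors raise, was at -0.60 for high dose against control (adjusted p = 0.590). Pck1, the classic gluconeogenic target, has no probe of that name and was not analysed here.

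Lists of genes that feeding and fasting are known to move were set beside them as a reading of feeding state. Of 24 fed-state genes, mostly enzymes and regulators of fat synthesis, 6 rose at the low dose (Thrsp, Pnpla5, Gpam, Pnpla3, Elovl6 and Acly) against 0.224% of all probes. Of the 24, 22 had a positive value, against 8079 of 17681 genes in all, with a median of 0.87. Their largest value was that of Pnpla3, at 3.97 (adjusted p = 0.0372). These rises were already known from earlier work on the same arrays and are not independent evidence. The count rests on the arrays used. It was 1 without control mouse 5 or without low-dose mouse 6 and 3 without any 1 of control mice 1, 2, 4 and 6 or low-dose mice 1 and 3. It was 0 with slide as a block or array brightness as a covariate, with medians of 0.78 and 0.54. At the high dose 0 of 24 passed and the median was 0.11. For high against low dose 23 of 24 were lower, against 8034 of 17680 genes in all, with 0 calls and a median of -0.60. In this list Fasn was saturated on 10 arrays, Scd1 on 9 and Thrsp on 1, which limits what their values can show.

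Fasting-state genes ran the other way in the median at the low dose, at -0.44, yet the 1 that passed rose. This was Lpin1, a phosphatidate phosphatase, at 1.08 (adjusted p = 0.0454), a call that was lost with slide as a block (0.97, adjusted p = 0.177), with array brightness as a covariate (0.84, adjusted p = 0.479), with the array median as scale (1.09, adjusted p = 0.0918) and with mouse number as a block (1.08, adjusted p = 0.0688). Its adjusted p lay between 0.0283 and 0.121 when 1 array was left out. Of the 24 measured, 9 were lower with an unadjusted p under 0.05, against 1152 of 17681 genes in all, among them Plin2 (-0.54, saturated on 3 arrays), which coats lipid droplets, and Creb3l3 (-0.48), a transcription factor of the fasted liver. At that p 2 were higher, Lpin1 and G6pc, against 885 of 17681 genes. At the high dose 21 of 24 were lower, against 9016 of 17681 genes in all, with 0 calls and a median of -0.25. At the low dose 17 of the 24 had negative values and 7 had positive ones, G6pc among the 7. The list shares genes with that of other FOXO1 targets, and G6pc is in both. Igfbp1, fasting-induced by background and in neither list, also had a positive value at the low dose.

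**Figure D5:**
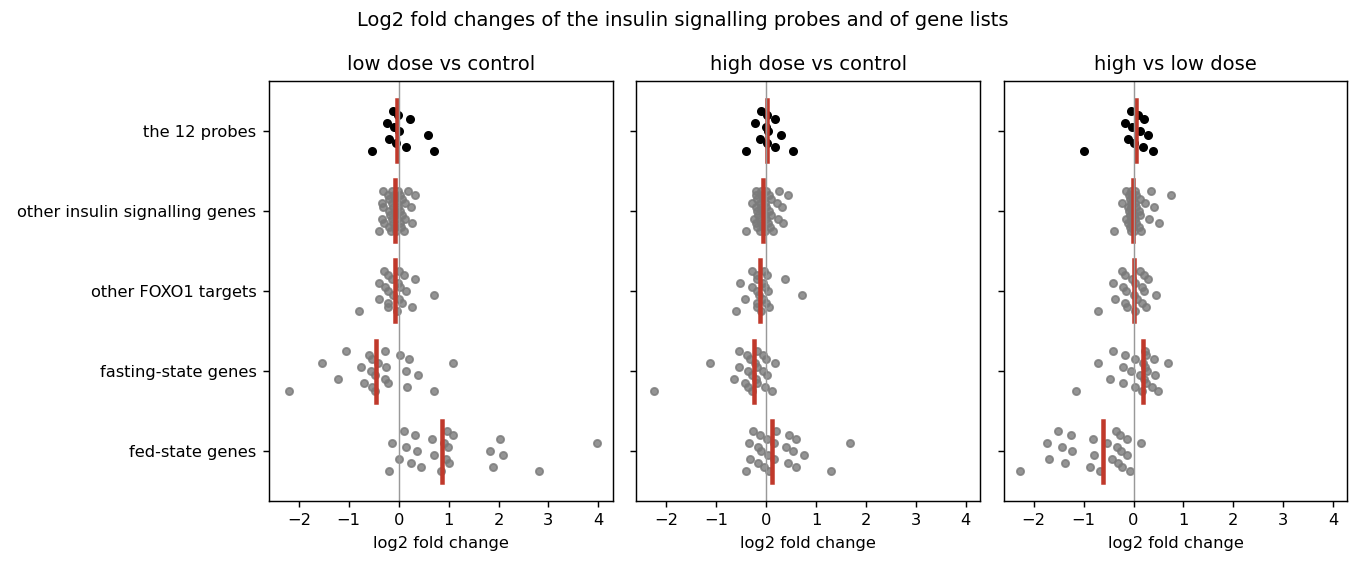
Log2 fold change (horizontal axis) of the 12 member probes, 1 point per probe, and of the genes of 4 lists, 1 point per gene, for the 3 comparisons, with the median as a vertical bar. The members, other insulin signalling genes and other FOXO1 targets centre near 0, while fed-state genes centre at 0.87 for low dose against control and at -0.60 for high against low dose.

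Single genes of feeding and of the hour were read in the same way. Srebf1 gave 1.00 for low dose against control (adjusted p = 0.125, 5 low-dose mice) and 0.77 for high dose against control (adjusted p = 0.590). Of 15 measured clock genes, 0 passed in any comparison (limma). For high dose against control 9 of the 15 had an unadjusted p under 0.05, 5 of them higher and 4 lower, against 538 higher and 685 lower of 17681 genes in all. For low dose against control 1 was higher and 1 lower at that p. Per2, a clock repressor, was at 1.62 for low dose against control (adjusted p = 0.0936) on 1 probe and at 0.15 on the other. Dbp, a clock output factor that peaks once a day, averaged 2.53 ± 0.30 at the high dose and 0.72 ± 0.69 in controls, a log2 fold change of 1.81 (adjusted p = 0.574), and for high against low dose it was 1.70 (adjusted p = 0.220). Whether feeding or the hour had a part in the Igfbp1 and G6pc values was not tested.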

How the data were processed

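Liver RNA of 18 mice was measured on 1-colour arrays. The deposited scanner files give each spot's background-subtracted intensity (Agilent Feature Extraction 9.5, per the submitters' processing notes) in arbitrary units and not scaled between arrays, and the spot and background intensity before it. The series' value table, deposited by the authors, holds log2 intensity for 22514 probes. The submitters' processing notes also name limma without steps. Probe coordinates are on mm8, per the file headers.

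Of 45018 spots per array, control and outlier-marked spots were left out, and a probe's repeated spots were averaged. Log2 intensity minus the array's 75th percentile was used. A probe was kept when well above background on at least 6 of 18 arrays. Each kept probe was fitted with limma 3.58.1 (R 4.3.3, lmFit and eBayes, all 18 arrays, group as the only term), with Benjamini-Hochberg adjustment and a threshold of 0.05. All tests were 2-sided. The procedure was tested on simulated data. Permutation tests of single probes were exact, and those of correlations used 100000 draws within groups. The family of relations was planned over all 7 members and Pck1, and holds 33 where no probe exists for Irs2 and Pck1.

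List genes were read from their brightest kept probe. Symbols of these genes were updated through probe accessions in a reference gene table (GRCm38.p6, names only), which matched 23477 probes. Genes were named by rule: all members, 6 genes of feeding and hour, up to 4 genes with the smallest p of each list, the 3 most and least alike genes of each member, and the genes of a list that passed. Some genes that the rule names are not reported here. The members and lists were chosen with earlier results of these data known. The main fit did not treat same-numbered mice as pairs. Of 18 correlations of same-numbered mice, 7 exceeded 0.1 (-0.29 to 0.33). Differently numbered mice were not set beside them, so these values cannot show whether the numbers pair the mice. Replicates are separate mice, and the number of arrays limits the precision. Alternatives were other scalings, background and filters, the deposited table, blocks, weights, array brightness and leaving out each array.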

Additional observations from a re-analysis of the deposited data

Results flagged for a closer look

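In 3 of 39 groups of mice examined for the members, 1 mouse lay far from the rest of its group by Dixon's test, which flags about 1 in 20 groups by chance. Irs1 on its bright probe was at 3.10 in control mouse 4, with the nearest control mouse at 2.31. Igfbp1 was at 5.72 in high-dose mouse 2, with the nearest high-dose mouse at 4.45. The 5′-most Pik3r1 probe minus the mean of the other 3 was at -0.29 in low-dose mouse 5, with the nearest low-dose mouse at -1.08. That contrast is counted in the 39 but was chosen after its values were seen, so its flag is only a description.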

How the results depend on the processing

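The 12 member probes were refitted under up to 14 other settings and without each array in turn. None passed the threshold, except that array weights gave 1 at the low dose, the 5′-most Pik3r1 probe. High dose against control gave 0 probes of all in every setting. The 57 probes of low dose against control became 15 with the array median as scale, 15 with no filter on dim probes, 127 with probes well above background on all arrays, 142 with only the groups compared, 120 with a trended robust eBayes, 223 with array weights, 4 with slide as a block and 0 with array brightness as a covariate. The 11 of high against low dose became 7 with the array median, 4 with no filter, 5 with 1 probe per gene, 0 with only the groups compared, 31 with array weights and 0 with slide as a block. Leaving out 1 array, the counts lay between 7 (without control mouse 5) and 111 (without high-dose mouse 2) for low dose against control, and between 0 and 17 for high against low dose. The causes were not tested. Of 33 relations, 0 passed with quantile normalisation and 0 with the array median. With the replicate block, 13 probes passed at the low dose and 0 in either other comparison, and 0 member probes. Whether mouse numbers pair the mice is not known.

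Signs turned in these cases. With the array median, high dose against control gave -0.032 for Foxo1 (first probe), -0.026 for the second Akt2 probe, -0.018 for the brightest Pik3r1 probe and -0.047 for the brighter Akt2 probe. That Akt2 probe gave -0.062 for high against low dose with the array median, -0.0064 with normexp, -0.0032 in the deposited table, -0.075 with array weights, -0.0019 with slide as a block, -0.00052 with slide as a random block and -0.0060 with brightness, and -0.046 for high dose against control with weights. Insr at the low dose gave 0.0024 with quantile normalisation and 0.037 with normexp. In the deposited table, high against low dose gave 0.0058 for the dim Irs1 probe and -0.22 for the bright one. Outlier-marked spots were not removed from that table. The brightest Pik3r1 probe gave 0.035 at the low dose with slide as a block. With brightness, high dose against control gave -0.015 for Foxo1 on the first probe and 0.036 on the second. With 1 array left out, low dose against control ranged over -0.16 to 0.12 for Insr, -0.069 to 0.049 for the brighter Akt2 probe, -0.28 to 0.12 for the dim Irs1 probe and -0.15 to 0.036 for the brightest Pik3r1 probe. High dose against control ranged over -0.034 to 0.077 for the brighter and -0.096 to 0.10 for the second Akt2 probe, -0.030 to 0.11 for the brightest Pik3r1 probe, -0.31 to 0.10 for the dim Irs1 probe and -0.024 to 0.071 for Foxo1 (first probe). High against low dose ranged over -0.043 to 0.075 for the brighter Akt2 probe, -0.0024 to 0.18 for the brightest and -0.12 to 0.031 for the 3′-most Pik3r1 probe, and -0.16 to 0.16 for the dim Irs1 probe. Insr and the dim Irs1 probe were well above background on only 13 and 14 of 18 arrays, which limits what they can show.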
